A study of Mus musculus with 6 samples.

Results

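The cells described here are the fibrillar collagen-rich cells of mouse dorsal skin, labelled dermal papilla (DP) and fibroblast cells, in a single-cell RNA-seq series of hair regeneration after depilation. Members were barcodes with 500 to 7000 detected genes and at most 10% mitochondrial UMIs in which Col1a1, Col1a2 and Col3a1 together held at least 5 UMIs and at least 15 of every 10000 UMIs. The rule found 110 members among 55177 kept barcodes (0.199%) of 61031 deposited. The 6 libraries were made from dorsal skin of wild-type FVB males aged 55 to 57 days, taken at 0, 4 and 16 h and at 2, 4 and 6 d after the back was shaved and waxed. All animals had the same genotype and sex, and all groups apart from 0 h differ from it by the time since depilation. Each library pooled equal numbers of cells from 2 mice, so every time point is 1 sample. Only the 4 d library held at least 20 members, so levels of members are given for 4 d alone.

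The DP is a small condensate of mesenchymal cells at the base of the hair follicle. It signals to the epithelial stem cells above it with Wnt, BMP and Fgf ligands and their inhibitors, and with R-spondins, which strengthen Wnt signalling. Hair follicles of adult mice rest in telogen and are driven into anagen, the growth phase, by depilation. The dermal fibroblasts around the follicle make most of the collagen of the skin, together with small proteoglycans such as decorin (Dcn) and lumican (Lum). Fibrillar collagens type I (Col1a1 and Col1a2) and type III (Col3a1) are made by both kinds of cell.

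Members were nearly all from one library. There were 0 members of 6925 kept barcodes at 0 h, 1 of 7663 at 4 h, 0 of 8729 at 16 h, 1 of 9534 at 2 d, 97 of 12410 at 4 d and 11 of 9916 at 6 d. The 4 d library thus held 88.2% of them. The share of kept barcodes was 0.782% at 4 d (exact Clopper-Pearson 95% interval 0.634 to 0.953) and 0.111% at 6 d (0.0554 to 0.198), and the absence of members allowed a share of up to 0.0433% at 0 h and 0.0344% at 16 h (3 cells of the total). These intervals and limits cover counting error only. The part of depth in these counts was not tested. The libraries held 73894299, 72634390, 112370376, 99686327, 95678280 and 88632160 UMIs from 0 h to 6 d and the median kept barcode 8624, 8547, 10797, 7662, 6309 and 7164 UMIs. Recovery of dermal cells from the skin by enzyme digestion and the number of such cells in the skin cannot be told apart with 1 library per time.

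**Figure D1:**
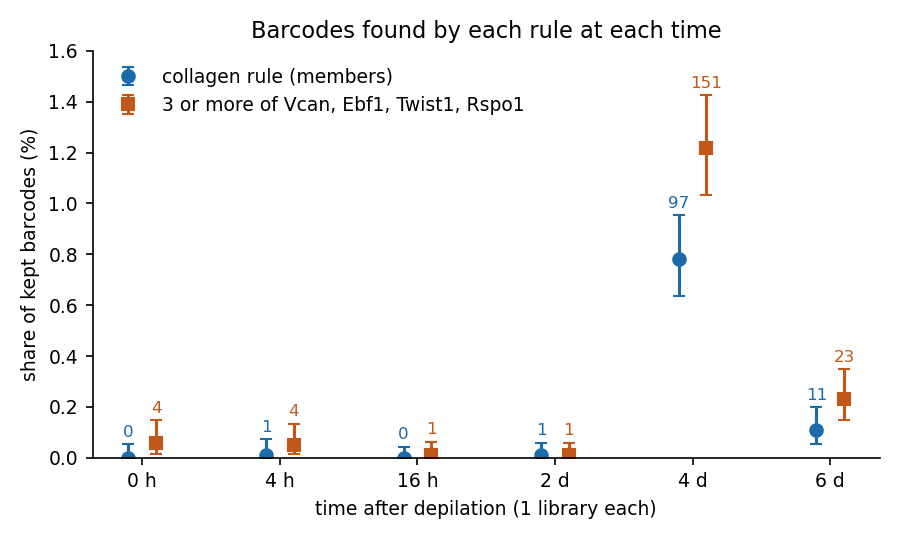
Share of kept barcodes (%, y axis) at each time after depilation (x axis, 1 library each) that met the collagen rule (blue circles) or held UMIs of 3 or more of Vcan, Ebf1, Twist1 and Rspo1 (orange squares). Bars are exact 95% binomial intervals covering counting error, and the numbers are cells. Both rules find their largest share at 4 d, with 97 and 151 cells.

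The 4 d members had a median of 3697 UMIs (1335 to 26978) and 1876 detected genes, and the collagen share used to choose them had a median of 26.7 per 10000 UMIs (15.02 to 3130). Collagen RNA was low in other cell classes of the same library. Its 927 T cells, 341 melanocytes and 5077 keratinocytes were picked by their own markers among kept barcodes that were not members. They held 0.0244, 0.0409 and 0.0366 collagen UMIs per 10000. The choice left out any barcode that met the collagen rule, so these values were low in part by design. Close to the limit, 18 members lay at shares of 15 to 20 and 19 kept barcodes that were not members at 10 to 15. Of these, 17 and 19 held UMIs of at least 3 of Vcan, Ebf1, Twist1 and Rspo1. A further 12 barcodes reached the share with only 3 or 4 collagen UMIs, 9 of them with at least 3 of those markers. Between 7 and 47 barcode sequences were shared by each of the 15 pairs of libraries. No member's cell was a member in a second library, although the barcodes of 2 members also occurred in another one.

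Vcan, Ebf1, Twist1 and Rspo1 are markers given with the label that the rule did not use. They were chosen with earlier results of these data known, so their levels describe members and are no independent check of the label. Vcan encodes versican, a proteoglycan of the DP matrix, Ebf1 and Twist1 are mesenchymal transcription factors and Rspo1 is an R-spondin. Vcan was detected in 77 of the 97 members at 4 d, Ebf1 in 86, Twist1 in 84 and Rspo1 in 74. Levels were taken from UMIs summed over cells and scaled to CPM, the counts a gene would have if the summed cells held 1e6 UMIs, with exact Poisson 95% intervals. Vcan reached 1469 CPM (1361 to 1584), Ebf1 1223 (1124 to 1328), Twist1 992 (903 to 1087) and Rspo1 791 (712 to 876). In the other 12313 kept cells of the library the same genes were at 13.4, 6.75, 4.40 and 4.26 CPM. Members richest in collagen held less of them, since in the 22 with a collagen share of at least 50 per 10000 Vcan was at 342 CPM, Ebf1 at 523, Twist1 at 295 and Rspo1 at 174. When each cell was thinned to 2000 UMIs, Ebf1 was detected in 80.9% of 89 members and in 0.306% of 654 T cells, and Twist1 in 76.4% and 0% of them (8 members and 273 T cells were shallower and left out). Without thinning the Ebf1 shares were 88.7% and 0.539%, at median depths of 3697 and 2565 UMIs.

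**Figure D2:**
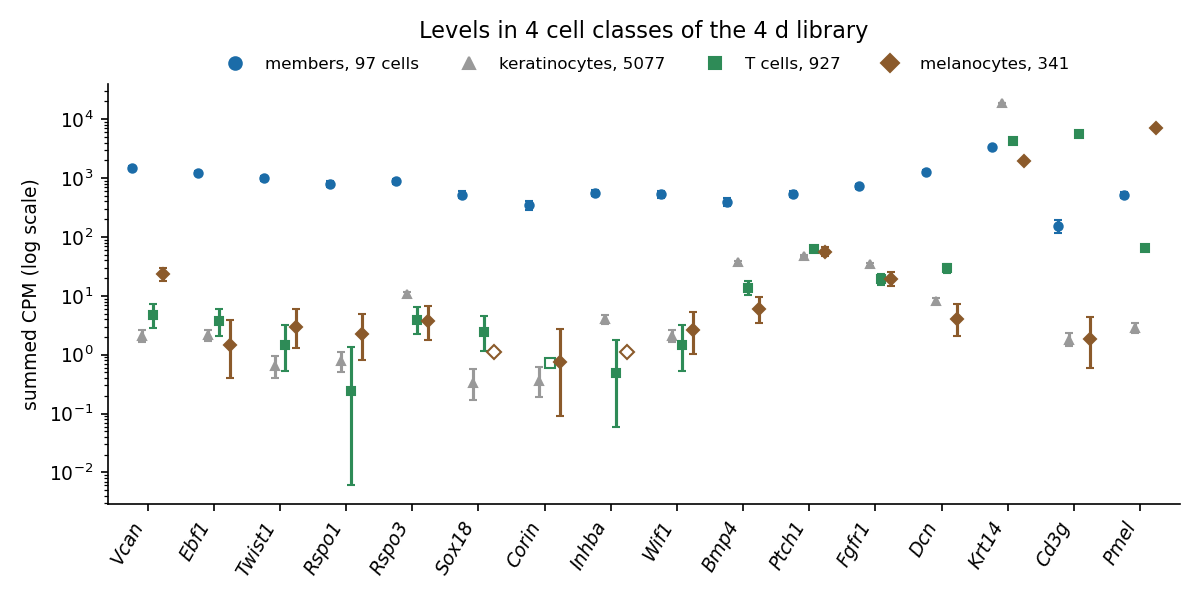
Summed CPM (log axis) of 16 genes (x axis) in the 97 members and in the keratinocytes, T cells and melanocytes of the 4 d library. Bars are exact Poisson 95% intervals and open symbols mark 0 UMIs, drawn at the value of 3 UMIs. DP genes stand higher in members, Ebf1 at 1223 CPM against 3.67 in T cells. Krt14, Cd3g and Pmel were used to pick the other classes and are highest there by that choice.

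Among genes with at least 200 UMIs in members, the 15 with the highest ratio of members to other cells were, after the 3 collagens of the rule, Col6a3, Gldn, Twist1, Col6a2, Sox18, Rspo1, Ebf1, Serpinf1, Mdk, Nid1, Serpine2 and Rspo3. Col6a3 and Col6a2 encode chains of collagen VI, which forms beaded filaments around mesenchymal cells. Col6a3 was at 821 CPM in members and 3.04 in the other cells. Mdk, which encodes the heparin-binding growth factor midkine, was at 830 and 5.52 CPM. Serpine2, a secreted serine protease inhibitor, was at 1043 and 8.45 CPM. Sox18, a transcription factor known both from vessels and from the DP, was at 525 and 2.60 CPM. The endothelial list had 4 of its 7 genes at 0 UMIs in members and summed to 38.9 CPM there and 23.7 in the other cells. Its gene Kdr counted 10 UMIs in 8 members, at 21.6 CPM against 1.08 in the other cells.

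Members and other cells are the contrast the rule itself used, so these levels are descriptive. Of 3129 genes with a mean level of at least 50 CPM over members and other cells, 14.6% were at least 2-fold higher in members and 8.76% at least 2-fold lower. In the DP list 18 of 25 genes passed this limit, 18 of them higher, and in the fibroblast list 13 of 21 passed, 12 of them higher. Most of these genes were near 0 in the other cells and passed only through their level in members, so these counts were set by the limit and nothing is read from them. All 11 keratinocyte markers that passed were lower. They passed mainly through their level in the other cells, so this count was also set in part by the limit, and nothing is read from it. The keratinocyte list summed to 5932 CPM in members against 26721 in the other cells, with Krt14 at 3353 and 9051 CPM. A single member held 819 of the 1552 Krt14 UMIs, and without the 6 keratin-rich members Krt14 was at 394 CPM and Krt5 at 260 instead of 1076. No marker of the Schwann, adipocyte, pericyte or endothelial lists passed the limit. Of the dermal sheath and smooth muscle list 2 genes passed (Tagln and Myl9, both higher), and of the melanocyte list 2 of the 4 that passed were higher (Dct and Pmel). A single member held 182 of the 260 Dct UMIs, and a single member 191 of the 238 Pmel UMIs. Without members rich in another type's markers Dct was at 14.6 CPM and Pmel at 2.93, below the 249 and 209 of the other cells.

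Members fell into 3 clusters at a resolution of 0.5, into 2 at 0.25, where 83 DP-like cells formed a single cluster, and into 4 at 1.0. Clusters 1 and 3 held 58 and 26 cells, 84 together. They were called DP-like because 2 of the 10 leading genes of each were in the DP list and 0 in the fibroblast list. Of the 25 DP markers, 22 and 21 were at 5 or more UMIs in these clusters, and 14 in cluster 2. Cluster 2 held 26 cells, and Dcn, Col1a1, Ly6a, Lum and Clec3b were among its 10 leading genes together with the melanocyte genes Pmel, Dct and Mlana, so it was left without a cell type name. In the 4 d library the clusters held 51, 22 and 24 cells. All 9 members of that library rich in markers of another type (6 in keratins, 4 in T cell, 4 in melanocyte and 2 in myeloid genes, with some in more than 1 class) were in cluster 2. The values given below for cluster 2 come from the 15 cells left without them, of which 86011 UMIs were counted, against 179469 in cluster 1 and 75917 in cluster 3. The melanocyte list then summed to 23.3 CPM with Pmel at 0 UMIs, the T cell list to 34.9 with Cd3g at 0, and the keratinocyte list to 4127, with Krt15 at 1256 CPM its most abundant gene. The part of these keratin UMIs in the values of cluster 2 was not tested. Clusters were built from the expression of all these cells, so differences between them are descriptive.

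The clusters were set apart by DP markers and by a few fibroblast genes, which also helped to define them. Per cell, the 25 DP markers summed to 82.9 to 267 UMIs per 10000 in cluster 1 (median 164), to 0 to 256 in cluster 3 (median 177) and to 0 to 111 in cluster 2 (median 23.6). Dcn, Lum and Col1a1, which are leading genes of cluster 2 and of which Col1a1 is also in the rule, were together at 0 in 42 of the 51 cells of cluster 1 and in 20 of the 22 of cluster 3, and had a median of 110 per 10000 in cluster 2. Members of the fibroblast list were unequally present in DP-like cells. Fbln2 was detected in 62, Sparc in 58 and Col6a1 in 59 of the 73, Fbn1 in 15 and Dpt in 11, and Clec3b in 2, Ly6a in 1 and Lum in 0. The ranges of both sums overlapped between clusters. A cell of cluster 2 held 111 DP marker UMIs per 10000 and none of these 3 genes, and a cell of cluster 1 held 44.9 of the 3 genes beside 150 of the DP markers.

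**Figure D3:**
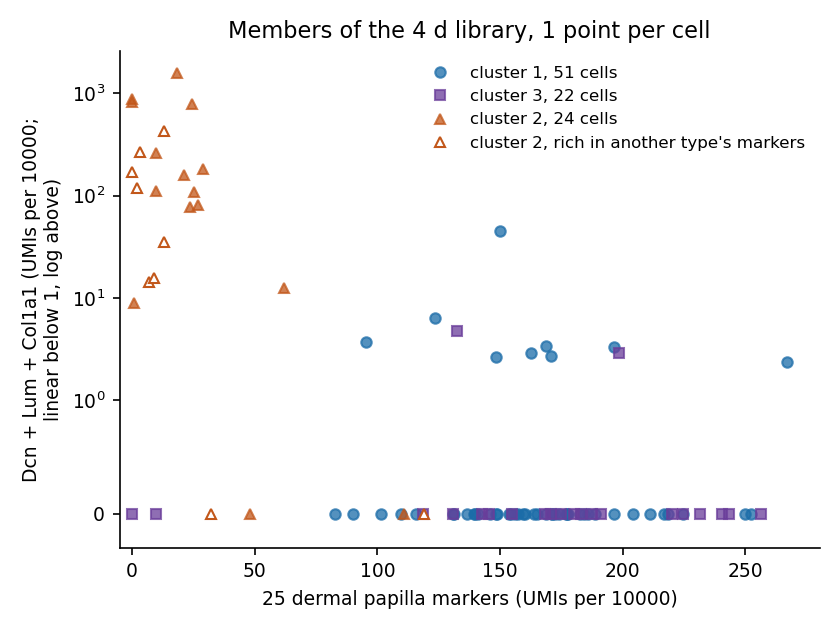
Sum of the 25 DP markers (x axis, UMIs per 10000) against Dcn, Lum and Col1a1 (y axis, UMIs per 10000, linear below 1 and logarithmic above) in each of the 97 members at 4 d. Colours and shapes are clusters, and open triangles are the 9 members rich in markers of another cell type. The median of the DP sum is 164 in cluster 1 and 177 in cluster 3, and 42 and 20 of their cells have no UMI of these 3 genes.

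The 3 collagens of the rule divided unequally, and since they chose the members, their values are a description. Col3a1 was detected in all 97 members and Col1a2 in 93, but Col1a1 in 31. The 2195 Col1a1 UMIs were held mostly by a few cells, 5 of which had 54.9% of them, and 66 members had none. Col1a1 counted 15 UMIs in cluster 1 and 2 in cluster 3, with 175 and 105 for Col1a2 and 273 and 118 for Col3a1. In DP-like cells Col1a1 was at 66.6 CPM (38.8 to 107) and in cluster 2 at 17033 (16172 to 17928). Col1a2 was at 1096 and 14672 CPM in the same cells and Col3a1 at 1531 and 9603. A cell without Col1a1 could be a member only through Col1a2 and Col3a1. Among the 151 barcodes of the 4 d library with UMIs of at least 3 of Vcan, Ebf1, Twist1 and Rspo1, of which 78 were members, Col3a1 was detected in 141, Col1a2 in 136 and Col1a1 in 30.

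Fibroblast proteoglycans and enzymes followed Col1a1. Dcn counted 1 UMI in cluster 1, 0 in cluster 3 and 285 in 10 of the 15 cells of cluster 2 (3314 CPM). Lum counted 0 UMIs in the DP-like cells and 47 in cluster 2, at least 46.5-fold higher against a limit of 3 UMIs over the summed DP-like cells. Sparc, which encodes a collagen-binding glycoprotein, was at 779 CPM in DP-like cells and 9290 in cluster 2. Lox, the enzyme that crosslinks collagen, counted 0 UMIs in DP-like cells and 13 in cluster 2. Clec3b was at 7.83 and 570 CPM and Fbn1, which encodes fibrillin, at 66.6 and 512 CPM. Of 3434 genes with a mean level of at least 50 CPM, 17.7% were at least 2-fold higher in DP-like cells and 12.9% at least 2-fold lower. Among the genes that passed, the fibroblast list had 11 of 16 lower and 0 higher, the fibrillar collagens 7 of 10 lower (3 of them the genes of the rule) and 1 higher, the proteoglycans and glycoproteins 13 of 21 lower and 1 higher, and the proteases and inhibitors 11 of 13 lower and 1 higher. The exceptions were Col23a1 (482 against 93.0 CPM), Vcan (2506 against 256) and Serpine2 (1750 against 69.8). Genes such as Dcn, Lum and Clec3b passed only through their level in cluster 2 and are among its leading genes. The counts of these lists were thus set in part by the limit and by the clustering, and nothing is read from them. The contractile genes Acta2 and Tagln, which mark smooth muscle and the dermal sheath, were held by few cells of cluster 2. Acta2 had 31 UMIs in 3 cells and Tagln 41 in 4.

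Col6a1 was at 764 CPM in DP-like cells and 1477 in cluster 2. Nid1, which encodes a linker of basement membranes, was at 552 and 512 CPM, and Col15a1, a collagen of the basement membrane zone, at 591 and 302. Plod2, the lysyl hydroxylase of collagen telopeptides, was at 944 CPM in DP-like cells and 69.8 in cluster 2. It was the exception in its list of collagen folding and crosslinking genes, of which 1 of 9 that passed was at least 2-fold higher in DP-like cells and 4 were lower (17.7% and 12.9% of all genes), such as Serpinh1 at 493 and 1477 CPM. Ctsk, which encodes a collagen-degrading cathepsin, was at 176 and 977 CPM. Of 11 genes of the basement membrane list that passed, 1 was at least 2-fold higher and 3 at least 2-fold lower, beside 17.7% and 12.9% of all genes. The counts of both lists depend on the same limit, and nothing is read from them.

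Among secreted factors, the R-spondins Rspo1 and Rspo3 were found in most DP-like cells, Rspo2 in 22 of the 73 and Rspo4 in 1. Rspo1 was detected in 50 of 51 cells of cluster 1, 18 of 22 of cluster 3 and 4 of 15 of cluster 2, at 1499, 1067 and 128 CPM. Rspo3 was at 1399, 1791 and 174 CPM. The intervals of both genes in cluster 2 lay below those of the DP-like clusters. Wnt5a, a ligand of mostly non-canonical Wnt signalling, was at 942, 659 and 221 CPM. Wif1, a secreted Wnt inhibitor, was at 702, 948 and 430 CPM, and was also detected in 8 of the 15 cells of cluster 2. Of other secreted inhibitors, Sfrp1 was at 86.1 CPM in DP-like cells and 93.0 in cluster 2, and Dkk3 at 19.6 and 69.8. Apcdd1, a membrane inhibitor, was at 613, 171 and 69.8 CPM. Lef1, a nuclear partner of beta-catenin, was at 345, 422 and 34.9 CPM and Nkd2, a feedback inhibitor, at 340, 290 and 34.9 CPM. Axin2, a general Wnt target, counted only 10 UMIs in 97 members (21.6 CPM, against 16.4 in other cells). In the Wnt list 8 of 12 genes that passed were higher in members than in other cells and 1 was lower, beside 14.6% and 8.76% of all genes. In DP-like cells against cluster 2 these counts were 9 and 2 of 16, beside 17.7% and 12.9%. Genes such as Lef1 and Nkd2 passed only through their level in members or in DP-like cells. All these counts were thus set in part by the limit, and nothing is read from them.

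Ligands of the TGF-beta superfamily were found with their inhibitors. Bmp4 was detected in 65 members and was at 791 CPM in cluster 1 and 342 in cluster 3, against 81.4 in cluster 2. Bmp7 was at 345, 158 and 46.5 CPM. Inhba, which encodes the activin A chain, was at 1064, 685 and 105 CPM, and its inhibitor follistatin (Fst) at 290, 632 and 46.5. Id3, a target of BMP signalling, was at 1443, 2292 and 302 CPM and was also broadly present elsewhere, at 305 CPM in the other cells of the library. Id1, a second target, was at 283 CPM in members and 318 in other cells. In the BMP list 7 of 13 genes that passed were higher in members than in other cells and 2 were lower (14.6% and 8.76% of all genes). In DP-like cells against cluster 2 they were 8 and 1 of 13 (17.7% and 12.9% of all genes). Genes such as Bmp7 passed only through their level in members or in DP-like cells. The counts of this list were thus set in part by the limit, and nothing is read from them.

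Genes of hedgehog reception were present. The follicle epithelium makes the ligand, and the targets Ptch1, Gli1 and Hhip report its reception. Ptch1 was detected in 75 of 97 members, at 908 CPM in cluster 1, 711 in cluster 3 and 256 in cluster 2, against 96.4 in other cells. Gli1 was at 89.2, 105 and 116 CPM, and its intervals overlapped between the clusters (51.0 to 145, 45.5 to 208 and 55.8 to 214 CPM). Hhip, which encodes a membrane protein that binds the ligand, was at 234, 474 and 23.3 CPM.

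Fgfr1 was detected in 86 members and was at 719 CPM, against 43.6 in other cells. The DP ligands Fgf7 and Fgf10 were sparse, with 25 UMIs in 20 members and 13 UMIs in 12, and 6 of the 18 genes of the Fgf list were at 0 UMIs. Edn3, which encodes a ligand for pigment cells, was at 112 CPM in members and 0.769 in other cells, and counted 52 UMIs in 35 cells. Igfbp4 was at 1331 CPM, with 1797 in DP-like cells and 1325 in cluster 2. Pdgfra, a receptor common to dermal fibroblasts, counted 50 UMIs in 30 members, and its intervals in the 3 clusters overlapped (63.7 to 165, 72.3 to 259 and 89.0 to 273 CPM). The ERBB list had 1 gene above the limit, Hbegf, at 51.9 CPM in members and 174 in other cells, and 5 of its 15 genes were at 0. In the Bcl-2 family, the anti-apoptotic Bcl2 was at 346, 184 and 11.6 CPM in clusters 1, 3 and 2, while Mcl1 was at 155 CPM in members and 203 in other cells.

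Of 34 mesenchymal transcription factors, 15 passed the limit between members and other cells, with 11 higher and 3 lower, beside 14.6% and 8.76% of all genes. Factors such as Ebf1, Prrx1 and Prrx2 passed only through their level in members. These counts were thus set in part by the limit, and nothing is read from them. Prrx1 and Prrx2, limb and skin mesenchyme factors, were at 298 and 199 CPM in members and 1.12 and 0.747 in other cells. They were shared by the clusters, with Prrx1 at 379, 382 and 279 CPM in clusters 1, 3 and 2. Trps1 was at 1114, 790 and 105 CPM and Alx4 at 228, 132 and 23.3. En1 was at 119 CPM in members. Nfib was at 15.7 CPM in DP-like cells and 465 in cluster 2.

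The DP-like clusters differed in a smaller set of genes. Of 3531 genes with a mean level of at least 50 CPM, 8.24% were at least 2-fold higher in cluster 1 and 8.98% at least 2-fold lower than in cluster 3. Counts near this limit are small, with 1 UMI at 13.2 CPM in cluster 3 and 5.57 in cluster 1. The part of counting error in these shares was not tested. Over the members of all libraries, cluster 1 was led by Tagln3, Rarres1, Msantd1, Sox18, Hs3st6, Bmp4, Cd24a, Apcdd1, Bmp7 and Gldn. Sox18 was at 1103 CPM (955 to 1268) in cluster 1 and 277 (171 to 423) in cluster 3. Mfap4, a microfibril protein, was at 373 and 79.0 CPM, and Heyl, a Notch target, counted 27 UMIs in cluster 1 and 1 in cluster 3. Cluster 3 was led by the nonagouti gene (ENSMUSG00000027596), Igfbp5, Sostdc1, F5, Hspa1b, Hhip, Hspa1a, Scube3, Serpine2 and Enpp2. Part of this lead came from the 4 cells of 6 d. Within the 4 d library Enpp2 was at 659 CPM in cluster 3 and 462 in cluster 1, Hspa1a at 224 and 329 and Hspa1b at 65.9 and 117, while Scube3 was at 896 and 295, F5 at 527 and 123 and Igfbp5 at 356 and 55.7. Vcan was at 4110 CPM (3666 to 4592) in cluster 3 and 1828 (1635 to 2036) in cluster 1, and Serpine2 at 3122 and 1170. Sox2, a transcription factor known from the DP of some hair types, counted 20 UMIs in 9 of 22 cells of cluster 3 and 5 UMIs in 4 of 51 cells of cluster 1. Rspo2 was at 250 and 72.4 CPM and Sostdc1, which encodes a secreted inhibitor of BMP and Wnt signalling, at 408 and 33.4. Nonagouti, the pigment switch made by the DP, counted 98 UMIs in 7 cells of cluster 3, but only 10 of them in 4 cells of the 4 d library, the rest being from 6 d.

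**Figure D4:**
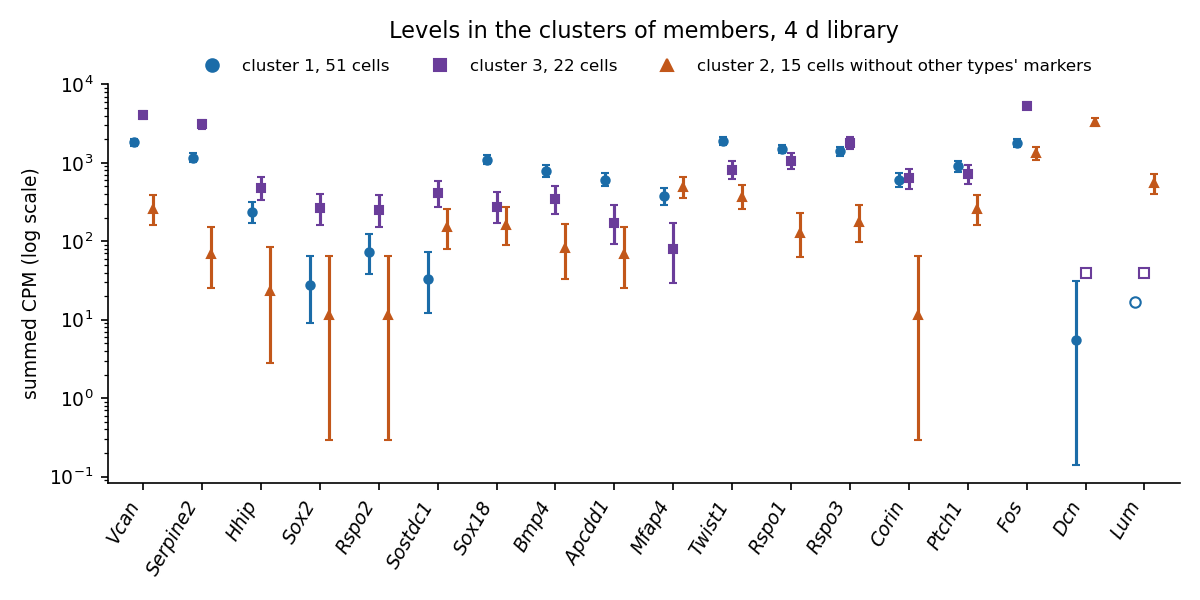
Summed CPM (log axis) of 18 genes (x axis) in clusters 1 and 3 and in cluster 2 without the cells rich in markers of other types, 4 d library. Bars are exact Poisson 95% intervals and open symbols mark 0 UMIs, drawn at the value of 3 UMIs. Sox18 is higher in cluster 1 (1103 against 277 CPM), Vcan, Sox2 and Fos are higher in cluster 3, Corin and Ptch1 lie close together in both, and Dcn and Lum stand out in cluster 2.

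Immediate early genes, which are known to respond to cell isolation, differed between the same clusters. Of 13 immediate early genes that passed, 12 were at least 2-fold higher in cluster 3, beside 8.98% of all genes. Fos was at 5387 CPM in cluster 3 against 1789 in cluster 1 and Jund at 3043 against 1025. The list summed to 17480 CPM in cluster 3 and 6246 in cluster 1, and its part in the division was not tested. Of the 21 genes of the DP list that passed, 4 were at least 2-fold higher in cluster 1 (Twist1, Sox18, Bmp4 and Notum) and 3 in cluster 3 (Vcan, Hhip and Sox2). Over all genes these shares were 8.24% and 8.98%. Twist1 was at 1900.0 CPM (1704 to 2113) in cluster 1 and 817 (626 to 1047) in cluster 3. The other 14 were less than 2-fold apart, among them Corin at 607 and 632 CPM, Crabp1 at 535 and 540, Spon1 at 429 and 474 and Prlr at 535 and 501. Corin, which encodes a protease of the DP, counted 1 UMI in cluster 2.

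Cycling markers were sparse in the DP-like members. At 2000 UMIs per cell, 9 of 89 members (10.1%, 4.73 to 18.3) held at least 2 UMIs of the 10 cycling markers, against 45.3% of 654 T cells, 23.2% of 315 melanocytes and 29.2% of 981 keratinocytes drawn at random. The thinned members were 2 of 47 in cluster 1, 1 of 20 in cluster 3 and 6 of 22 in cluster 2 with all its cells. At full depth 19.6% of members, 49.0% of T cells, 40.2% of melanocytes and 57.3% of keratinocytes met this limit, and 9.59% of DP-like cells. All 8 cycling markers that passed the limit were at least 2-fold lower in members than in other cells, beside 8.76% of all genes. They passed mainly through their level in the other cells. This count was thus set in part by the limit, and nothing is read from it. The list summed to 689 CPM in members and 2136 in the other cells. Within the members it summed to 121 CPM in DP-like cells and 1779 in cluster 2.

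At the other times there were too few members for levels, and only counts are given. Of the 11 members at 6 d, 6 were in cluster 1, 4 in cluster 3 and 1 in cluster 2. Vcan, Ebf1 and Twist1 were each detected in 10 of them, Rspo1 in 9, Rspo3, Wif1, Inhba and Ptch1 in 11, and Hhip, Crabp1 and Bmp4 in 9. Wif1 counted 170 UMIs and Vcan 163. Col1a1 was detected in 2 of the 11 with 4 UMIs, and Dcn, Lum and Ly6a counted 0 UMIs. The member at 2 d held 5 UMIs of Col3a1 and none of the other collagens of the rule, with 6 of Rspo3, 3 of Ebf1 and 2 of Twist1, and was in cluster 1. The member at 4 h held 26 UMIs of Col1a2, 12 of Col1a1, 16 of Dcn, 8 of Vcan, 4 of Pdgfra and 3 of Lum. It held none of Ebf1, Twist1 or Rspo1, and was in cluster 2.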

How the data were processed

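Single-cell suspensions of dorsal skin were captured with the 10x Genomics Chromium system. The authors counted reads with Cell Ranger 6.1.2 on mm10, per the processing notes, and deposited filtered matrices, which hold unnormalized UMI counts. The study's methods describe different enzymes for telogen and anagen skin in sorting, and the labels name no enzyme for these libraries. Counts were read with scipy 1.17.1. Members were clustered with scanpy 1.11.5 (Leiden, igraph 0.11.9). T cells held at least 3 UMIs of Cd3e, Cd3g and Cd3d, melanocytes at least 5 UMIs and 15 per 10000 of Dct, Pmel, Mlana and Tyrp1, and keratinocytes at least 100 per 10000 of Krt5 and Krt14. These classes were taken from kept barcodes that were not members. A ratio against a sum under 3 UMIs was computed with 3 UMIs. No doublet caller was run, and members rich in markers of another type were counted instead (Krt5 and Krt14 above the 90th percentile of the T cells, 75.7 per 10000 at 4 d, or at least 3 UMIs of the T cell or melanocyte genes or of Cd207, H2-Aa, Lyz2, Csf1r and C1qa). The 38 symbols occurring more than once were left out, which removed Ccl19 from its list. Markers and lists could be named whole, those with at least 20 UMIs first, with the 15 genes of highest ratio to other cells among those with at least 200 UMIs and the 10 leading genes per cluster among those with at least 50. Members and lists were chosen with earlier results of these data known, and the comparison classes, the 50 CPM limit and the removal of cells rich in other markers after the data were seen. With 1 library per time, intervals cover counting error only, and UMIs of cells of 1 library are not replicates.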

Additional observations from a re-analysis of the deposited data

Results flagged for a closer look

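Outside the members, 73 kept barcodes at 4 d held UMIs of at least 3 of Vcan, Ebf1, Twist1 and Rspo1, against 4 at 0 h, and stood out as signal in cells that the collagen rule leaves aside. They had a median of 4 collagen UMIs (10.0 per 10000), and 10 of them were rich in markers of another cell type. Counted with members, such barcodes numbered 151 at 4 d (1.22%, 1.03 to 1.43) and 23 at 6 d (0.232%, 0.147 to 0.348), with 4, 4, 1 and 1 in the 4 earlier libraries.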

How the results depend on the processing

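The number of members depended on the collagen limits. From 110 in all, 97 at 4 d, 11 at 6 d and 1 at 2 d it went to 54, 47, 6 and 0 with at least 10 collagen UMIs, to 44, 40, 3 and 0 at a share of 30 per 10000, and to 24, 22, 1 and 0 at a share of 50, while the member at 4 h was lost (0) with at most 5% mitochondrial UMIs. In each of these the 4 d library held the most members. Cycling members at 4 d were 19.6% without thinning and 30.3% with 1 UMI in place of 2. Genes at least 2-fold higher and lower in members numbered 1108 and 645 at a mean level of 20 CPM and 84 and 65 at 200 CPM, against 456 and 274. The other 62 values stayed within 1.5 times the main count or within its interval, among them 81 to 85 cells in DP-like clusters over other resolutions, neighbours and 20 seeds, and 72 with 4 d members alone. These values include the counts of 0 at 0 h and 16 h, which stricter limits could not change, and the 2 and 4 clusters at other resolutions. The division of clusters 1 and 3 was lost at a resolution of 0.25, which gave 2 clusters, and a resolution of 1.0 gave 4. Of 46 levels of markers and leading genes, 11 stayed within their interval without cells rich in other markers, 26 were above and 9 below, and at a share of 50 per 10000 these were 3, 17 and 26, with Vcan, Ebf1, Twist1 and Rspo1 among those below. The planned comparisons and time courses of members between times were not run, since only the 4 d library had 20 members. Alternatives on other types' markers, on 4 d members alone and on the CPM limit were chosen after seeing the data. No paired analysis was possible because each time point is 1 library. Depth limits sums to a resolution of 2.16 CPM per UMI in members and 13.2 in cluster 3.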

Other observations

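The barcodes with at least 3 of Vcan, Ebf1, Twist1 and Rspo1 (151 at 4 d and 23 at 6 d, 757719 and 126463 UMIs) gave enough cells at 6 d to set levels beside those at 4 d. These values were looked at after the data were seen, come from 1 library each and carry no test, and intervals cover counting error only. Wif1 was at 723 CPM (664 to 786) at 4 d and 3013 at 6 d, in 110 of 151 and 22 of 23 barcodes. Fgf7, a DP growth factor for keratinocytes, was at 68.6 CPM and 316, and Fgf10 at 27.7 and 119. Hhip was at 223 and 593 CPM, Fst at 366 and 973, Enpp2 at 370 and 988, Crabp1 at 354 and 720 and Edn3 at 144 and 324. Other DP genes differed less between the times, with Corin at 410 and 380 CPM, Inhba at 597 and 577, Rspo3 at 904 and 917 and Bmp4 at 445 and 506. Sox18 was at 550 CPM at 4 d and 277 at 6 d.

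Collagens and keratins differed as well. Col1a1 was at 525 CPM at 4 d and 39.5 at 6 d, while Col1a2 and Col3a1 were less far apart, at 1054 and 633 and at 1115 and 822. Dcn had 141 UMIs in 9 barcodes at 4 d and 0 at 6 d, and Krt14 was at 2973 and 1542 CPM. Top2a counted 84 UMIs at 4 d and 0 at 6 d and Hmgb2 was at 323 and 79.1 CPM. The part of keratin RNA or of cells rich in other markers in these values was not tested.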
